A study of Mus musculus with 8 samples.

Results

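The members described here are the mouse genes of cytochrome P450 families 1 to 4, taken by gene symbol from the array annotation: Cyp, a family digit, a subfamily letter and a gene number. They are 54 of the 18193 genes that have a probe set naming them alone. Each is represented by its brightest such probe set, a group of short probes for 1 transcript region. Signal was measured in single livers of 4 glycerol kinase knockout pups, with the gene disrupted by targeting, and of 4 wild-type littermates. All are labelled as male inbred C57BL/6J, taken at day of life 3, when the design describes the knockouts as symptomatic, with hypoglycemia and acidosis. The livers were untreated as far as the labels say, and the gene is disrupted in the whole animal rather than in a named cell type. The annotation used pairs 0 probe sets with the glycerol kinase gene, so its level was not analysed here as a check of the labels.

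Cytochrome P450s of these families are heme enzymes of the endoplasmic reticulum that insert an oxygen atom into drugs, foreign chemicals, steroids, bile acids and fatty acids, with electrons supplied by P450 reductase and cytochrome b5. Nuclear receptors and the aryl hydrocarbon receptor (AhR) set the transcription of many of them. Hepatocytes are their main site, several are stronger near the central vein or near the portal tract, and many are turned on only around birth or at weaning.

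Some arrays stood apart from the others. The array labelled wild type 4 read 10506 for Xist, the RNA of the inactive X chromosome, against 196 to 396 on the other arrays, and 1.3 for the Y-linked Eif2s3y, against 685 to 1164. The 3'/5' signal ratio of the transferrin receptor control was 6.50 to 6.72 on replicates 1 and 2 of both groups and 4.21 to 4.83 on replicates 3 and 4. That of pyruvate carboxylase, a sign of RNA quality, was 7.03 in knockout 1 and 4.93 in knockout 2, against 2.06 to 3.46 on the other arrays. The median signal was 147 to 175, and 42.7% to 46.8% of probe sets reached 200 on an array. All 8 tested hepatocyte markers, albumin among them, had signal, and their summed signal was 156130 to 215123 in knockout livers and 139087 to 176065 in wild-type livers. All 8 had a log2 fold change above 0, with a median of 0.09, and 0 passed the test described next. Tat, a tyrosine aminotransferase, passed with the replicate pair as a block (log2 fold change 1.33, limma adjusted p = 0.0468). With the replicate number as a block it did not (limma adjusted p = 0.102). Of 6 adrenal markers 2 were tested and 0 passed. Cyp11a1, Cyp11b1 and Mc2r lay below 200 on every array, Star reached 274.5, Cyp21a1 lay between 58.2 and 296, and Hsd3b1 averaged 1394 in knockout livers and 1579 in wild-type livers.

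Of the 54 genes, 35 reached a signal of 200 on at least 4 of the 8 arrays and were tested with the whole table, and 0 of them passed through 1 group alone. At a limma adjusted p under 0.05, 1 was higher in knockout livers (Cyp2f2) and 1 was lower (Cyp1a2), while 33 did not pass, with adjusted p from 0.0576 to 0.990. Over all 20395 probe sets tested, 0.299% passed, 0.147% as higher and 0.152% as lower. At an adjusted p under 0.1 it was 4 members higher (0.814% of all probe sets) and 1 lower (0.677%), and at an unadjusted p under 0.05 it was 9 higher (7.12%) and 1 lower (7.32%). Log2 fold changes, knockout minus wild type, were above 0 for 22 of the 35 (62.9%) and below 0 for 13, while 45.8% of all probe sets lay above 0. Their median was 0.16, against -0.03 over all. The groups did not overlap for 7 genes with higher knockout signals (20.0%), against 4.47% of all probe sets, and for 1 gene with lower ones (2.86%), against 4.85%. In bulk liver, fewer cells of a type and less RNA per cell cannot be told apart.

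Family 1 holds the classic AhR-driven P450s. Cyp1a2, which oxidises caffeine and aromatic amines and is made constitutively in the adult liver, had a signal of 707, 935, 526 and 627 in knockout livers 1 to 4, against 2259.8, 4823, 2088 and 3553 in wild-type livers 1 to 4. Every knockout value lay below every wild-type value, and the lowest wild-type liver stood well above the highest knockout liver. Cyp1a2 fell to a mean of 699 ± 174 in knockout livers, against 3181 ± 1275 in wild-type livers (SD, n = 4 each), a ratio of 0.22 and a log2 fold change of -2.11 ± 0.27 (SE; limma adjusted p = 0.0225). It was -2.001 in replicates 1 and 2 and -2.21 in replicates 3 and 4, and with the replicate pair as a block the adjusted p was 0.0157. Without wild type 4 the log2 fold change was -2.03 with an adjusted p of 0.0552, and with the pair block as well it was -1.93 with an adjusted p of 0.0249. The adjusted p also missed the threshold without knockout 2 (0.0615), knockout 3 (0.0914), wild type 2 (0.0888) or wild type 3 (0.0520).

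Its neighbour Cyp1a1, the inducible AhR target that oxidises polycyclic hydrocarbons, averaged 241 ± 63.8 in knockout livers and 308 ± 71.5 in wild-type livers, with a log2 fold change of -0.35 that did not pass (limma adjusted p = 0.572). Its knockout signals were alike in livers 1 to 3, at 275, 268 and 276, and 146 in liver 4. Cyp1b1, an estrogen-hydroxylating enzyme found mostly outside the liver, lay below 200 on every array and was not tested. The 250 bases before the start of Cyp1a2 and of Cyp1a1 are shown because the genes lie side by side on chromosome 9 and 1 of them passed the test. They are from the RefSeq promoter table (GRCm38.p6), at chr9:57683656-57683905 on the minus strand for Cyp1a2 and chr9:57697363-57697612 on the plus strand for Cyp1a1, written 5′ to 3′ with the AhR core GCGTG, searched on both strands, in capitals.
Cyp1a2: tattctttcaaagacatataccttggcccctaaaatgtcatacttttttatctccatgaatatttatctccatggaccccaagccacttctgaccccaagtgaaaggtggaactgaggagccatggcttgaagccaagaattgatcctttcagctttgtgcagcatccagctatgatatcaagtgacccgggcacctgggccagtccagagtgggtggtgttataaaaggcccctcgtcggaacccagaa
Cyp1a1: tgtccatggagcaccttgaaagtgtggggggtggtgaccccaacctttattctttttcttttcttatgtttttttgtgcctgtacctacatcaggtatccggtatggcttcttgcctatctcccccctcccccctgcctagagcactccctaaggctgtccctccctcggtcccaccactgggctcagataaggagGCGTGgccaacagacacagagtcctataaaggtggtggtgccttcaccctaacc

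The core occurs 54 to 50 bases before the start of Cyp1a1, and these letters are not in the Cyp1a2 window. The search covered 250 bases before and 50 after each start, and sequence farther away was not searched. It is a common word, present in 32.4% of the 32851 promoters in the table. Among the 43 P450 genes found there, 11 held it in at least 1 promoter, a count of genes rather than promoters. The receptor gene Ahr itself had a log2 fold change of -0.23 (limma adjusted p = 0.599), and its partner Arnt 0.19 (adjusted p = 0.578). Of the 4 other AhR targets with a probe set, 2 were tested and 0 passed: Tiparp, a receptor-induced ADP-ribosyltransferase, had a log2 fold change of 0.11, and Nqo1, a quinone reductase, one of 0.07. The other 2, Ahrr and Aldh3a1, lay below 200 on every array.

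The largest log2 fold change among all these P450 probe sets was that of a probe set annotated to both Cyp2a5 and Cyp2a4, plotted as Cyp2a5 or Cyp2a4, which stands outside the 54. Mouse Cyp2a5 hydroxylates coumarin and nicotine, and Cyp2a4 hydroxylates testosterone. The shared probe set read 5616, 4021, 2389 and 1419.8 in knockout livers 1 to 4, against 544, 439, 972 and 479.7 in wild-type livers. The groups did not overlap, and the knockout livers themselves were spread widely, with 1 and 2 above 3 and 4. The signal averaged 3361 ± 1847 in knockout livers and 609 ± 246 in wild-type livers (SD, n = 4 each), 5.52 times as high, with a log2 fold change of 2.32 ± 0.39 (SE; limma adjusted p = 0.0466). It was 3.24 in replicates 1 and 2 and 1.41 in replicates 3 and 4, and the interaction did not pass (limma adjusted p = 0.484). With a liver left out, the adjusted p was 0.0124 without knockout 4 and 0.0733 to 0.173 without any of the others, 0.108 without wild type 4. With the replicate pair as a block it was 0.0347 on all arrays and 0.0536 without wild type 4. With the replicate number as a block the limma adjusted p was 0.0606, a miss. Which of the pair gave the signal cannot be told apart on this array.

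The promoters of this pair are nearly the same, with 245 of 251 aligned columns identical (97.6%), 4 mismatches and 2 gap columns. They are shown, from the same table and build, at chr7:26835089-26835338 for Cyp2a5 and chr7:26306942-26307191 for Cyp2a4, both on the plus strand. Capitals mark a match to the D-box word TTATGNAA, read on the opposite strand. In mouse liver the D-box factor Dbp is known to drive both genes over the day.
Cyp2a5: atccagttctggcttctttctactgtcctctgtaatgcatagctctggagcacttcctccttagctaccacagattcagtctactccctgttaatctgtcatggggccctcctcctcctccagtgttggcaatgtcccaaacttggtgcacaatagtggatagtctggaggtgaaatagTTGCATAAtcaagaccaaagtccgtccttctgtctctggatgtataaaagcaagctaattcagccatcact
Cyp2a4: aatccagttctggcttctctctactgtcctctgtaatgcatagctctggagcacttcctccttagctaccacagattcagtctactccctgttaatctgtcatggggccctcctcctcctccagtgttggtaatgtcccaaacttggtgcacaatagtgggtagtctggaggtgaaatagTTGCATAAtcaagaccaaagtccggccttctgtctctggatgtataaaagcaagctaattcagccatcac

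The word lies 71 to 64 bases before the start of Cyp2a5 and 70 to 63 before that of Cyp2a4. It occurs in 3.38% of all promoters in the table. Among the 43 of the 54 genes found there, 3 held it in at least 1 promoter: Cyp2b10, Cyp2b19 and Cyp4f14. This is a count of genes rather than promoters. Dbp itself was too dim to be tested, with signals of 78.7, 44.2, 144.8 and 128.4 in knockout livers and 143.4, 240.2, 291.7 and 244.9 in wild-type livers. The related factor Hlf had a log2 fold change of -0.36 (limma adjusted p = 0.273), with every knockout liver below every wild-type liver, and Tef one of 0.03.

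On chromosome 7 the same cluster holds Cyp2a12 and Cyp2f2, next to each other in the annotation. Cyp2f2, known for activating naphthalene in mouse airway cells and for its place near the portal tract in liver, read 13694, 13045, 12809.6 and 10554 in knockout livers 1 to 4, against 6622, 7819.5, 7180.5 and 8754 in wild-type livers. The groups did not overlap, and knockout 4 and wild type 4 were the closest. Cyp2f2 rose to a mean of 12526 ± 1367 in knockout livers, against 7594 ± 915 in wild-type livers (SD, n = 4 each), 1.65 times as high, with a log2 fold change of 0.72 ± 0.12 (SE; limma adjusted p = 0.0473). The effect was 0.89 in replicates 1 and 2 and 0.55 in replicates 3 and 4. The limma adjusted p was 0.0411 with the pair as a block and 0.0921, a miss, with the replicate number as a block. With a liver left out it was 0.0251 without knockout 4 and 0.0730 to 0.169 without any of the others. Without wild type 4 it was 0.0734, or 0.0324 with the pair block as well. Its promoter, chr7:27119705-27119954 on the plus strand (RefSeq, GRCm38.p6), is shown as that of the 1 member that passed as higher, and the letters of none of the 4 motifs searched were in its window. Beside the AhR core and the D-box these were a DR1 element, a pair of AGGTCA words 1 base apart, held by 0.0396% of promoters, and a glucocorticoid element, AGAACA and TGTTCT 3 bases apart, held by 0.00913%, both searched on either strand and both in 0 members.
Cyp2f2: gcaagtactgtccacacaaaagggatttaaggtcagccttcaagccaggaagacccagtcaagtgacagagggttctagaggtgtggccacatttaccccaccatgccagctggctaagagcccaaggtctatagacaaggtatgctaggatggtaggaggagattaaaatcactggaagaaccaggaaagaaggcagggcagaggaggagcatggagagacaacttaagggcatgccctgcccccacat

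Cyp2a12, a steroid-hydroxylating P450, read 10703, 12229, 11180.1 and 9928 in knockout livers, against 6073, 7643, 7926 and 7125 in wild-type livers. Again every knockout liver was above every wild-type liver, but the log2 fold change of 0.62 ± 0.12 (SE) did not pass (limma adjusted p = 0.0632). Without knockout 4 it did (0.0409). The Cyp2b genes of the same chromosome, which answer to the receptor CAR, gave no call. Cyp2b9 read 1936, 2764, 1891 and 2098 in knockout livers and 2174, 3096, 3336 and 1878 in wild-type livers, overlapping groups with a log2 fold change of -0.25 (limma adjusted p = 0.631). Cyp2b10, the standard CAR target, was too dim to test. Its signal was 386, 92.7, 84.7 and 129.6 in knockout livers and 588, 307, 162 and 144.8 in wild-type livers, with replicate 1 the highest of each group.

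**Figure D1:**
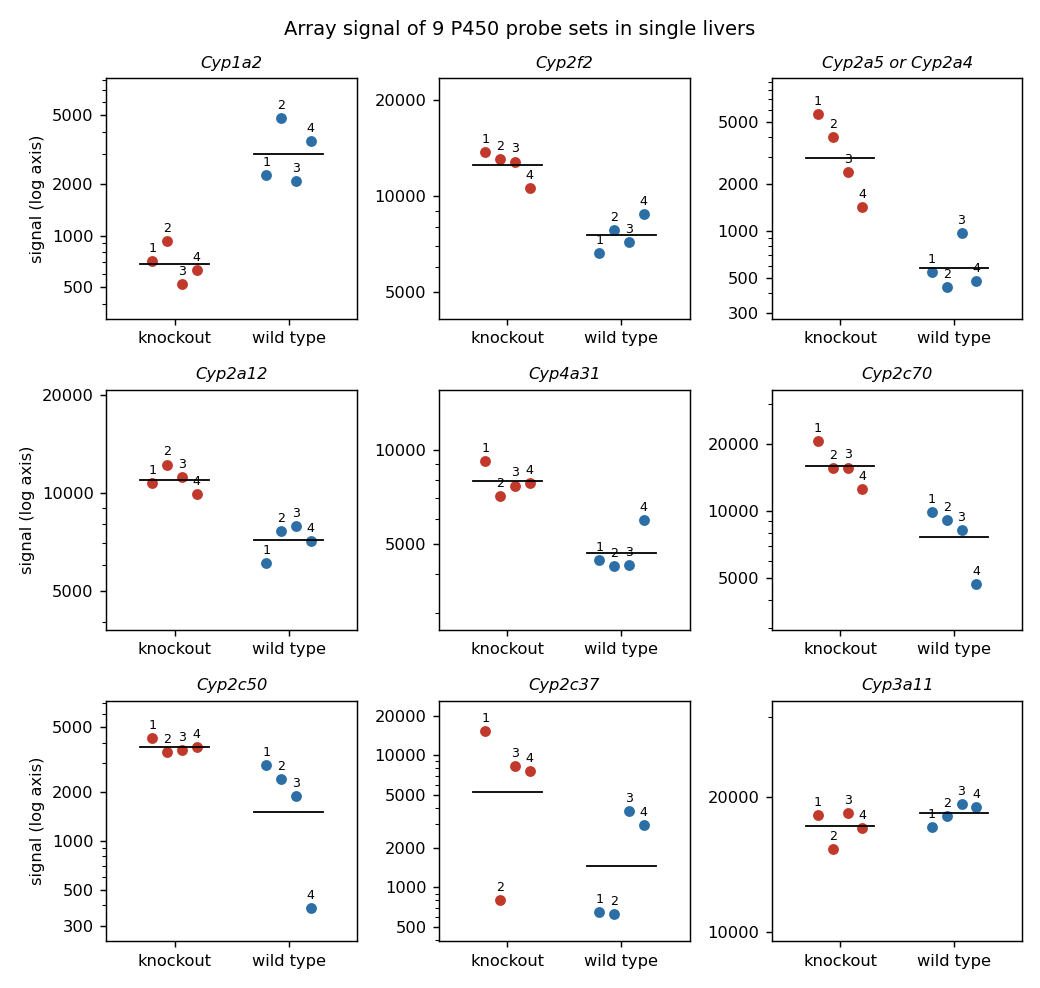
Array signal (log axis) of 9 P450 probe sets in each liver, knockout on the left and wild type on the right of each panel. Replicate numbers stand above the points, and lines are the group means of log signal, turned back into signal. Cyp1a2 lies between 526 and 935 in knockout livers and between 2088 and 4823 in wild-type livers, while Cyp3a11 overlaps between the groups.

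The Cyp2c subfamily, a cluster on chromosome 19, includes epoxygenases of arachidonic acid and the bile acid enzyme Cyp2c70. Of 11 members 9 were tested and 0 passed. Their log2 fold changes ran from -0.23 to 1.84 with a median of 0.53, and 8 of 9 were above 0. Cyp2c70, which makes muricholic acids, the bile acids characteristic of mice, read 20565, 15585, 15664 and 12584 in knockout livers, against 9897, 9136, 8237 and 4713 in wild-type livers. The groups did not overlap, with replicate 1 the highest and replicate 4 the lowest in both. Its means were 16099 ± 3304 and 7996 ± 2291 (knockout and wild type, SD, n = 4 each), a log2 fold change of 1.04 ± 0.23 that missed the threshold (limma adjusted p = 0.0875) and passed without knockout 4 (0.0471). With the replicate pair as a block it passed (adjusted p = 0.0395), also without wild type 4 (0.85, adjusted p = 0.0380); that block called 3 of the 35 genes higher and 1 lower, and 0.505% of all probe sets higher and 0.397% lower (0.25% lower without wild type 4).

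In several Cyp2c genes single livers stood apart. Cyp2c50 read 4251, 3498, 3593 and 3753 in knockout livers, against 2905, 2388, 1881 and 387 in wild-type livers. Its knockout livers were close together, and wild type 4 was far below the other wild-type livers. The log2 fold change was 1.31 ± 0.50 (limma adjusted p = 0.276) and 0.67 without wild type 4. Cyp2c37, an arachidonic acid epoxygenase, had the widest spread of the tested members, at 15268, 809.6, 8258 and 7572 in knockout livers, against 648, 630.0, 3763 and 2985 in wild-type livers. The highest knockout value was 18.9 times the lowest, replicate 2 was low in both groups, and the groups overlapped (log2 fold change 1.84 ± 0.87, limma adjusted p = 0.367). Cyp2c39 averaged 640.0 ± 651 in knockout livers and 218 ± 108 in wild-type livers, a log2 fold change of 1.10, with 1591 in knockout 2 against 163 in knockout 1. Cyp2c68 was steadier, with 16392, 11632, 15524 and 13386 in knockout livers and 9631, 8035, 11982 and 11508 in wild-type livers, overlapping at 1 liver of each group (0.47 ± 0.15, limma adjusted p = 0.201).

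The remaining 4 tested Cyp2c members ran from -0.23 to 0.53. Cyp2c54 averaged 1610.5 in knockout livers and 1005 in wild-type livers (log2 fold change 0.53). Cyp2c29 averaged 389.9 in knockout livers and 356 in wild-type livers (0.16). Cyp2c38 averaged 463 in knockout livers and 448 in wild-type livers (0.07). Cyp2c23 was the 1 member below 0, averaging 3939.9 in knockout livers and 4837 in wild-type livers (-0.23). None of these passed.

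The Cyp2d genes on chromosome 15 are the mouse counterparts of the human debrisoquine hydroxylase. Of 8 members 5 were tested and 0 passed, with a median log2 fold change of -0.08. Cyp2d9, a male-biased testosterone hydroxylase in the adult mouse, read 7887, 4071, 4236 and 3606 in knockout livers and 3461, 4049, 3303 and 3492 in wild-type livers. Knockout 1 alone stood apart, and the other knockout livers were near the wild-type range (log2 fold change 0.40, limma adjusted p = 0.442). Cyp2d26 averaged 17221 in knockout livers and 15201 in wild-type livers (0.18), and Cyp2d10 6571 and 6829 (-0.08, knockout and wild type). Cyp2d13 averaged 264 in knockout livers and 308 in wild-type livers (-0.15). Cyp2d22 averaged 1294 in knockout livers and 1667 in wild-type livers (-0.35), and a dimmer probe set of the gene gave -0.35 too.

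Cyp2e1, the ethanol- and acetone-oxidising P450 of the central vein zone, read 27646, 19749.7, 23455 and 19801 in knockout livers and 17838, 20212, 23667 and 22230.3 in wild-type livers. The groups overlapped, with a log2 fold change of 0.10 ± 0.13 (limma adjusted p = 0.761). In the Cyp2j subfamily, fatty acid epoxygenases encoded on chromosome 4, 2 of 5 members were tested. Cyp2j6 read 587, 437, 371 and 318 in knockout livers, against 168, 268, 201 and 248 in wild-type livers, with no overlap (0.89 ± 0.22, limma adjusted p = 0.113). Its probe sets disagreed: a dimmer one gave -0.05. Cyp2j5 averaged 2514 in knockout livers and 2245 in wild-type livers (0.16), and its dimmer probe set gave -0.11. Cyp2s1, an epithelial P450, read 324, 242, 256 and 217 in knockout livers and 331, 358, 299 and 289 in wild-type livers (-0.29, limma adjusted p = 0.478), with only knockout 1 inside the wild-type range.

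Family 3 holds the main drug-metabolising P450s of the liver, under the control of the receptor PXR. All 5 members were tested and 0 passed, with log2 fold changes from -0.28 to 0.87 and a median of -0.10. Cyp3a11, the major adult form in mouse liver, averaged 17206 ± 1428 in knockout livers and 18352 ± 944 in wild-type livers, a log2 fold change of -0.10 ± 0.09 with overlapping groups (limma adjusted p = 0.685). Cyp3a13, also found in mouse intestine, read 8648, 4824, 4282 and 2875 in knockout livers, against 2975, 2651, 2146 and 2672 in wild-type livers. Knockout 1 was the highest, and knockout 4 fell inside the wild-type range (0.87 ± 0.28, limma adjusted p = 0.192, and 0.0484 without knockout 4). Cyp3a16, a form of the fetal and newborn mouse liver, averaged 1439 in knockout livers and 1638 in wild-type livers (-0.15). Cyp3a25 averaged 13088 in knockout livers and 11344 in wild-type livers (0.21). Cyp3a44, female-predominant in the adult, averaged 3407 in knockout livers and 4175 in wild-type livers (-0.28). A probe set shared by Cyp3a41b and Cyp3a41a, outside the 54, read 7734, 9319, 12061 and 10549 in knockout livers, against 12736, 12873, 12924 and 14906 in wild-type livers. All its knockout values were below all wild-type values, and it did not pass (-0.45 ± 0.14, limma adjusted p = 0.184).

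The Cyp4a genes on chromosome 4 encode omega-hydroxylases of fatty acids and are textbook targets of the fasting receptor PPARα. Cyp4a31 read 9196, 7138, 7696 and 7847 in knockout livers, against 4423, 4242, 4269 and 5975 in wild-type livers. There was no overlap, and wild type 4 was the nearest to the knockout livers. The means were 7969 ± 873 in knockout livers and 4727 ± 835 in wild-type livers (SD, n = 4 each), 1.69 times as high, and the log2 fold change of 0.76 ± 0.14 was just outside the threshold (limma adjusted p = 0.0576, and 0.0484 without knockout 4). With the replicate pair as a block it passed (adjusted p = 0.0450), and also without wild type 4 (0.89, adjusted p = 0.0260). With the replicate number as a block it did not (limma adjusted p = 0.0853). A dimmer probe set of the gene gave 1.24 (limma adjusted p = 0.0563).

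Cyp4a14 read 26453, 20458, 23647 and 20263 in knockout livers, against 16994, 15559.5, 16473 and 18831 in wild-type livers, again with no overlap (log2 fold change 0.41 ± 0.11, limma adjusted p = 0.127). A probe set shared by Cyp4a31 and Cyp4a10, outside the 54, read 22960.2, 18105, 18167 and 16099 in knockout livers and 12893, 9658, 9092 and 13339 in wild-type livers (0.75 ± 0.15, limma adjusted p = 0.0777). Its groups did not overlap either. These Cyp4a genes resemble each other in sequence, so their probe sets may share signal. Cyp4a12a, whose symbol falls outside the name rule, averaged 787 ± 519.7 in knockout livers and 319.6 ± 121 in wild-type livers (1.10, limma adjusted p = 0.301). Ppara, which encodes the receptor, had a log2 fold change of -0.19 and did not pass (limma adjusted p = 0.520).

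The rest of family 4 overlapped between the groups. Cyp4b1, a lung P450, read 682, 756, 539.8 and 604 in knockout livers and 699.5, 744, 649 and 700.0 in wild-type livers (-0.12, limma adjusted p = 0.745). Cyp4f13, of the subfamily that includes hydroxylases of leukotriene B4, read 927, 827, 418 and 482 in knockout livers and 366, 418, 482 and 475 in wild-type livers. Knockout 1 and 2 were above all wild-type livers, and knockout 3 was among them. Knockout 4 (482.2) was level with the highest, wild type 3 (482.1). The log2 fold change was 0.52 ± 0.25 (limma adjusted p = 0.368). Cyp4f15 averaged 1945 in knockout livers and 2072 in wild-type livers (-0.09), and Cyp4f16 383 and 388 (0.01, knockout and wild type). A probe set shared by Cyp4f37 and Cyp4f16 gave 0.10. Cyp4v3, the mouse counterpart of the human fatty acid hydroxylase CYP4V2, read 2715, 1553, 936 and 935 in knockout livers and 1345, 837, 835 and 796 in wild-type livers. Replicate 1 was the highest of each group (0.57 ± 0.32, limma adjusted p = 0.454).

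**Figure D2:**
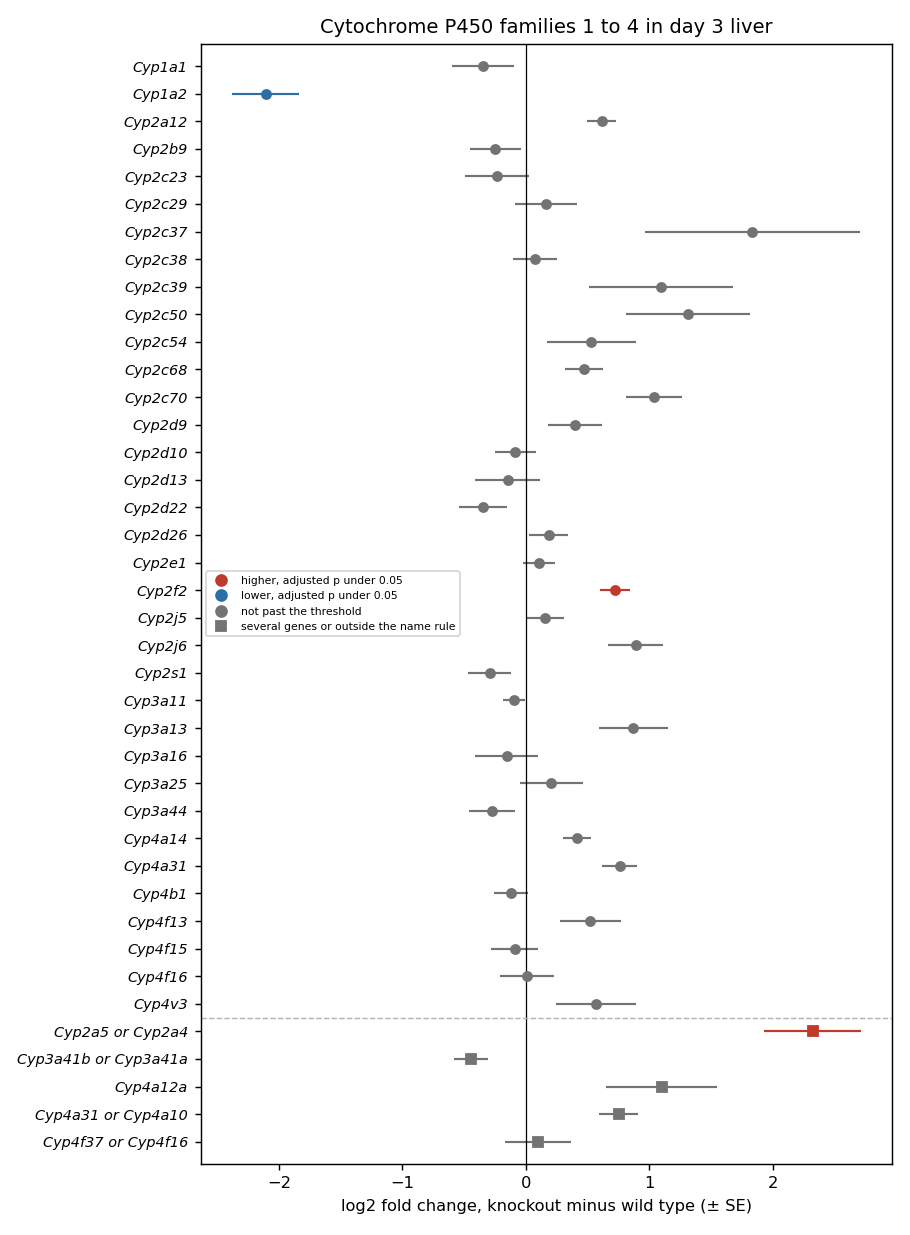
Log2 fold change, knockout minus wild type, with limma's standard error for the 35 tested P450 genes in order of family and number, and below the dashed line for the probe sets with several genes or outside the name rule. Cyp1a2 (-2.11) and Cyp2f2 (0.72) are past the adjusted threshold among the 35, and the shared probe set of Cyp2a5 and Cyp2a4 (2.32) below the line.

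The 19 members that were not tested were Cyp1b1, Cyp2b10, Cyp2b13, Cyp2b19, Cyp2c55, Cyp2c65, Cyp2d12, Cyp2d34, Cyp2d40, Cyp2g1, Cyp2j9, Cyp2j11, Cyp2j13, Cyp2r1, Cyp2u1, Cyp4f14, Cyp4f18, Cyp4f39 and Cyp4x1. Of these, 15 lay below 200 on every array. Cyp2g1, an olfactory P450, was the 1 among them in which all knockout signals (36.2 to 106.6) were below all wild-type signals (110.2 to 139.8), both in the range where signal is dim. Cyp2r1, the vitamin D 25-hydroxylase, averaged 154 in knockout livers and 127 in wild-type livers.

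The member pattern differed between single knockout livers. The median deviation of the 35 genes from their wild-type mean was 0.31, 0.12, 0.09 and -0.02 on the log2 scale in knockout livers 1 to 4, against -0.06, -0.03, 0.01 and 0.01 over all tested probe sets. In wild-type livers 1 to 4 the same median of the 35 genes was -0.08, 0.07, 0.04 and 0.01, with an SD of 0.065. Knockout 4 lay within this wild-type range, and knockout 2 and 3 were nearer to it than knockout 1. Of the 22 genes with a log2 fold change above 0, knockout 1 was the highest knockout liver for 18 (81.8%), and knockout 4 was the lowest for 11. Among all tested probe sets with a log2 fold change above 0, knockout 1 was the highest for 44.9%. The share of all probe sets with knockout 4 as the lowest was not computed. Knockout 1 also had the highest pyruvate carboxylase ratio and the summed hepatocyte marker signal differed between livers, and the part of these in the P450 values was not tested.

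**Figure D3:**
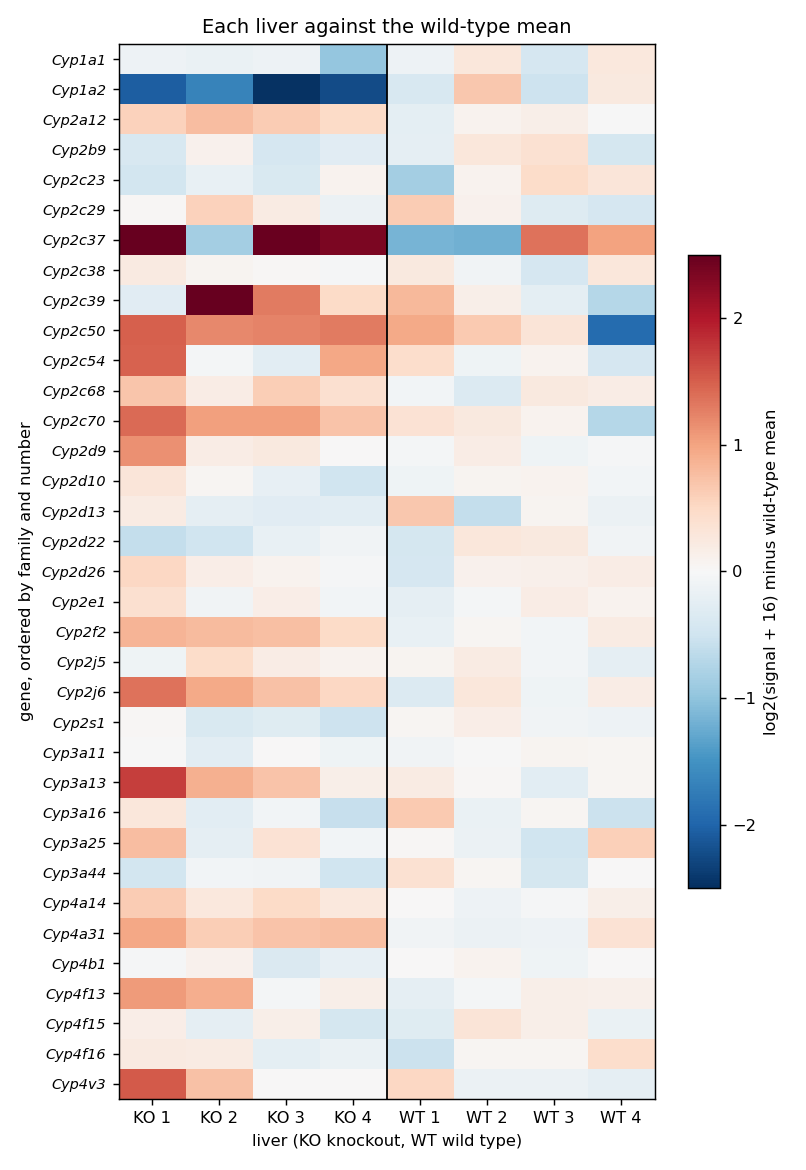
Each liver's log2(signal + 16) minus the wild-type mean of the gene, for the 35 tested P450 genes (rows) in the 4 knockout (KO) and 4 wild-type (WT) livers (columns), with colours that end at the limits of the bar. The Cyp1a2 row is low in all knockout livers, the Cyp2f2, Cyp2a12 and Cyp4a31 rows are high in all of them, and Cyp2c37 and Cyp2c50 hold livers that stand apart from their own group.

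Taken by replicate pair, the median log2 fold change of the 35 was 0.32 in replicates 1 and 2 and 0.07 in replicates 3 and 4, against -0.05 and -0.001 over all probe sets. The sign was the same in both pairs for 28 of 35 (80.0%): 17 above 0 and 11 below. Over all probe sets it was the same for 58.3%. The 7 with opposite signs were Cyp2c23, Cyp2c29, Cyp2d10, Cyp2d26, Cyp2e1, Cyp4f13 and Cyp4f16. The difference of the effect between the pairs passed at an adjusted p under 0.05 for 0 of 35 genes (0.00981% of all probe sets), and at an unadjusted p under 0.05 for 4, Cyp4f13, Cyp4f16, Cyp2d10 and Cyp2d26 (9.92% of all). For Cyp4f13 it was 1.13 in replicates 1 and 2 and -0.09 in replicates 3 and 4 (limma interaction adjusted p = 0.484).

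**Figure D4:**
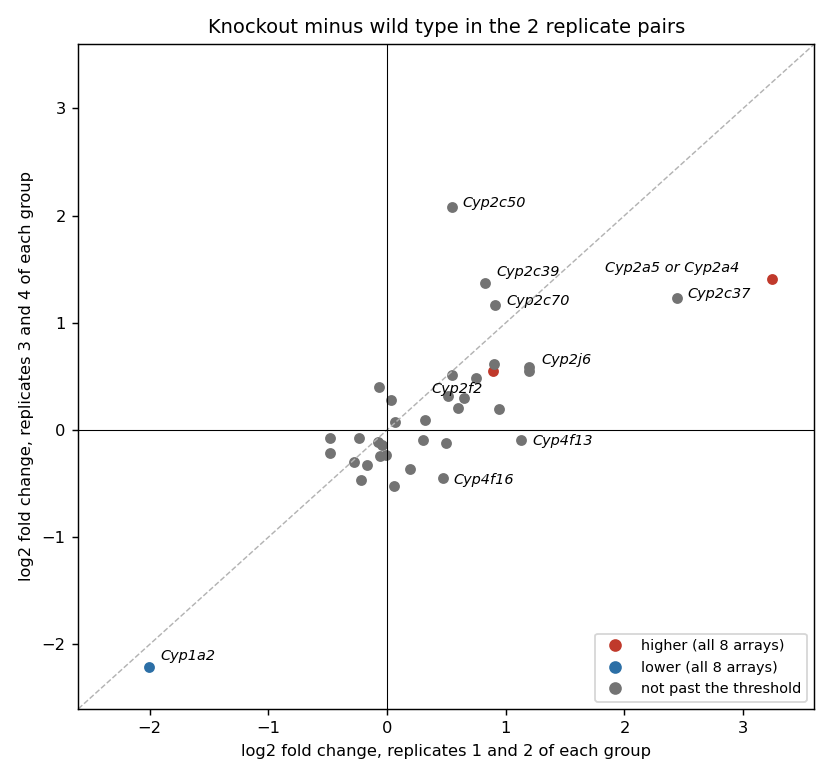
Log2 fold change, knockout minus wild type, in replicates 1 and 2 (horizontal) against replicates 3 and 4 (vertical) for the 35 tested P450 genes and the shared probe set of Cyp2a5 and Cyp2a4, with the line of equal change dashed. Cyp1a2 lies near the line, at -2.001 and -2.21, and the shared probe set lies below it, at 3.24 and 1.41.

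The genes that supply or control P450s did not pass the test. Of the 5 electron supply genes tested, 0 passed: Cyb5b, an outer mitochondrial cytochrome b5, had a log2 fold change of 0.66 (limma adjusted p = 0.167), and Fdx1, the mitochondrial ferredoxin, -0.39 (adjusted p = 0.214). Of 19 regulators 0 passed, with a median of 0.03. The growth hormone receptor Ghr had -0.48 (limma adjusted p = 0.150), with every knockout liver below every wild-type liver. Rxra, the shared partner of CAR, PXR and PPARα, had 0.66 and the hepatocyte factor Hnf4a 0.73 (adjusted p = 0.251). Hnf4a read 14958 in knockout 1 and 5308 to 7468 in the other knockout livers. Nr1i3, which encodes CAR, had 0.18, and Nr1i2, which encodes PXR, -0.30. Of the 9 genes tested in a heme list 0 passed. This list also holds Hmox1 (0.13) and Hmox2 (0.37), which break heme down and do not supply it. The widest difference was that of Alad at -0.86 (limma adjusted p = 0.272), while Alas1, the rate-limiting enzyme, had -0.002. Alad read 1316, 2315, 3431 and 4599 in knockout livers 1 to 4, and 3749, 5589, 5627 and 4450 in wild-type livers.

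Genes of the liver zones, chosen without P450s, gave 0 calls as well without a block. Of 10 portal zone genes 8 were above 0, with a median of 0.41 (45.8% of all probe sets were above 0), and 5 had an unadjusted p under 0.05 with higher signals (7.12% of all). They include Hsd17b13, a lipid droplet enzyme, at 0.59 (limma adjusted p = 0.0988, and 0.0459 with the replicate pair as a block), and Pck1, of gluconeogenesis, at 0.61 (adjusted p = 0.162). Of 9 central vein zone genes 2 were above 0, with a median of -0.09. Lect2, a secreted hepatocyte protein, had -1.09 (limma adjusted p = 0.0785, and 0.0459 with the pair block) with no overlap, Oat 0.997 (adjusted p = 0.210), and Glul, glutamine synthetase, -0.09. P450 families 5 and above had 9 of 18 genes tested, 0 called and a median of 0.01. Among them Cyp39a1, an oxysterol hydroxylase, had 1.40 (limma adjusted p = 0.0747, and 0.0340 with the pair block). Cyp27a1, the mitochondrial sterol hydroxylase, had 1.48 (adjusted p = 0.107), and both genes showed no overlap. Cyp8b1, of cholic acid synthesis, had -1.29 (adjusted p = 0.264). With the replicate number as a block, Hsd17b13 (limma adjusted p = 0.0885), Lect2 (0.0869) and Cyp39a1 (0.0675) missed the threshold.

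**Figure D5:**
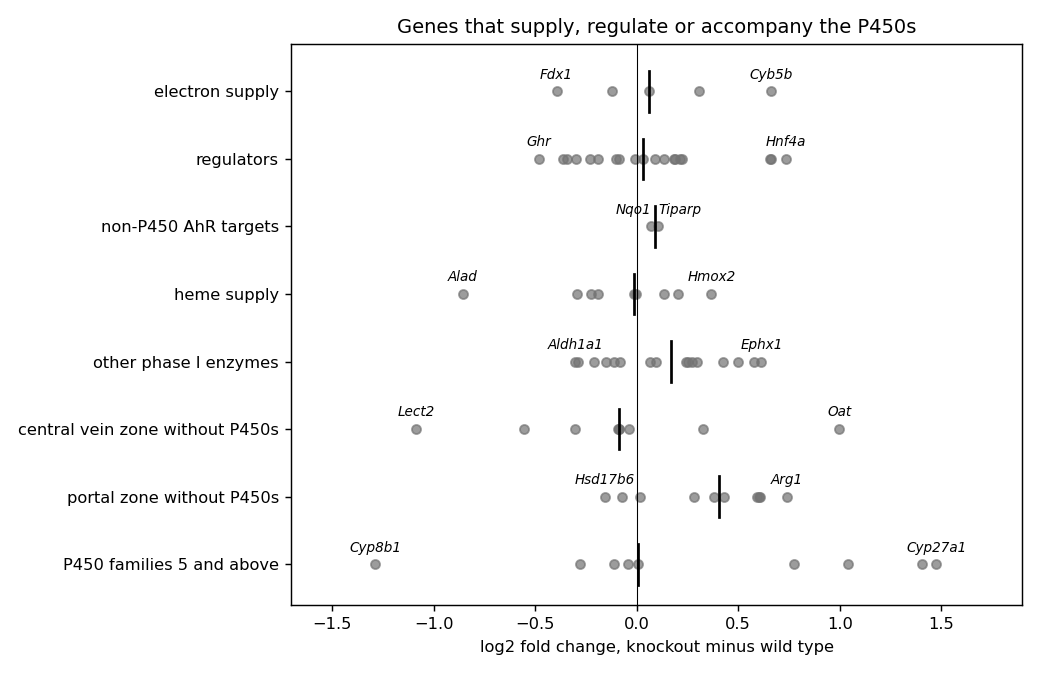
Log2 fold changes, knockout minus wild type, of the tested genes in 8 lists around the P450s, 1 point a gene, with the median of each list as a bar and the lowest and highest gene named. No point is past the adjusted threshold, and the list medians run from -0.09 (central vein zone) to 0.41 (portal zone).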

How the data were processed

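Liver RNA of single pups was hybridised to Affymetrix Mouse 430 2.0 arrays, 4 a group. The authors deposited a signal intensity per probe set from GCOS 1.2, per the labels run at defaults with a target of 500, and these values were used without further scaling. Detection calls are not in the table. The sample titles gave the groups. That the livers came from separate pups is the design's statement.

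Of 45101 probe sets 64 controls were left out. The platform annotation, updated by a RefSeq gene table, gave 34945 probe sets 1 gene, 932 several and 9160 none. A probe set was tested where 4 or more of the 8 arrays reached a signal of 200, which left 20395, and the test was run on log2(signal + 16) with limma 3.58.1 in R 4.3.3 (lmFit, eBayes with intensity trend, two-sided), with Benjamini-Hochberg adjustment over all of them and a threshold of 0.05. Fold changes on this scale understate the change of dim genes. Precision is limited by the number of arrays, with a median standard error of 0.19 on the log2 scale. The replicate pair (1 and 2 against 3 and 4) was used as a block because a control ratio differed between the pairs, and the labels name no batch.

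The members and lists were chosen with earlier results of these data known. Every array's value is given for members past the threshold, for the tested members with the smallest p up to 12 in all, and for each subfamily's tested member with the smallest p. Other tested members have both means, and each list up to 4 genes by smallest p, with others named for their role after their values were seen. The shared and unnamed-rule probe sets are given apart. Signals of different probe sets were not ranked. Promoters came from the RefSeq table (GRCm38.p6, 250 bases before the start), which matched 43 of the 54 members. Motifs were searched on both strands in 250 bases before and 50 after the start. The limma steps were tested on simulated data. Tables and figures used Python 3.11.15, pandas 2.3.3, matplotlib 3.10.9 and Biopython 1.88. Same-numbered knockout and wild-type arrays deviated from their group means with correlations of 0.218, 0.404, 0.339 and 0.0512. Numbers 1 to 3 were each matched best by their own number, and number 4 was not. The labels give no pairing of single arrays, so the main test did not pair them. The replicate number was used as a block in an alternative fit.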

Additional observations from a re-analysis of the deposited data

Results flagged for a closer look

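Of 80 groups of 4 livers looked at, 6 held a liver far from the others of its group by Dixon's ratio of gap to range on log2(signal + 16). Chance flags about 1 in 20 such groups. Among knockout livers these were liver 4 for Cyp1a1, the inducible AhR target, which was low (ratio 0.95), and liver 1 for Cyp2d13, which was high (0.885). Among wild-type livers, liver 1 was low for Cyp2d26 (0.854) and high for Cyp4v3 (0.904). Wild type 4, the liver with Xist signal, was high for Cyp4a31 (0.878) and for the shared probe set of Cyp3a41b and Cyp3a41a (0.907). Neither of the called genes, Cyp1a2 and Cyp2f2, was among them.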

How the results depend on the processing

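The log2 fold change of Cyp1a2 kept its direction under all 26 settings, from -2.34 to -1.88, and no called gene reversed. Against 1 gene called higher and 61 probe sets called in all, a signal minimum of 100 gave 0 and 22, no minimum 0 and 21, and a minimum of 400 gave 3 and 111. limma without trend gave 0 and 18, array weights 5 and 749, and an adjusted p threshold of 0.1 gave 4 and 304. Median centring gave 0 genes higher and a member median of 0.25, and the mean over a gene's probe sets gave 2 higher. The replicate pair as a block gave 3 and 184, or 3 and 154 without wild type 4. Replicates 1 and 2 alone gave 0 higher, 0 lower, a median of 0.32 and 30 probe sets, and replicates 3 and 4 alone 0, 0, 0.074 and 2. With each liver left out in turn, 0 to 5 genes were called higher (5 without knockout 4, 0 in the other fits) and 0 to 1 lower, the median was 0.075 (without knockout 1) to 0.25 (without knockout 4), and 2 to 334 probe sets were called, the most without knockout 4. Cyp1a2 passed in 3 of these 8 fits (limma adjusted p 0.0203 to 0.0914), Cyp2f2 in 1 (0.0251 to 0.169) and the shared Cyp2a5 and Cyp2a4 probe set in 1 (0.0124 to 0.173). Without knockout 4, Cyp2a12, Cyp2c70, Cyp3a13 and Cyp4a31 passed too. The replicate number as a block called 1 gene higher (Cyp2c70, limma adjusted p = 0.0418) and 1 lower (Cyp1a2, 0.0141) and 56 probe sets in all, and Cyp2f2 (0.0921) and the shared Cyp2a5 and Cyp2a4 probe set (0.0606) missed. Knockout arrays 1 to 3 correlated best with the wild-type array of their own number and knockout 4 with wild type 3, a hint from the data and not the design. The cause of these moves was not tested, and fits without a liver have fewer samples.

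Reversals touched only genes that were not called. Cyp4f16 gave -0.24 with array weights, -0.45 in replicates 3 and 4 and -0.17 to 0.16 with a liver left out. Its shared probe set with Cyp4f37 gave -0.28, -0.20 and -0.085 to 0.32 there. Replicates 1 and 2 turned Cyp2c23 (0.060), Cyp2c29 (-0.072) and Cyp2d10 (0.20), and replicates 3 and 4 turned Cyp2d26 (-0.12), Cyp2e1 (-0.090) and Cyp4f13 (-0.089). The dimmest probe set turned Cyp2j5 (-0.11) and Cyp2j6 (-0.048). With a liver left out, Cyp2d10 ran from -0.22 to 0.054, Cyp4f15 from -0.19 to 0.025, Cyp2d13 from -0.35 to 0.079, Cyp3a16 from -0.33 to 0.062 and Cyp2c38 from -0.071 to 0.17. Of the results for uncalled genes, 907 kept their side of the threshold and 24 passed it. For the called probe sets 43 results stayed past the threshold and 35 no longer passed: over the 26 settings the call was lost in 7 for Cyp1a2, in 14 for Cyp2f2 and in 14 for the shared Cyp2a5 and Cyp2a4 probe set.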

Other observations

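Other enzymes of the first phase of drug metabolism were 16 tested of 21 listed, and 0 passed. Their median log2 fold change was 0.17, with 0.41 in replicates 1 and 2 and -0.004 in replicates 3 and 4. Fmo5, a flavin monooxygenase, averaged 5393 in knockout livers and 3558 in wild-type livers (0.58, limma adjusted p = 0.194). The aldehyde dehydrogenase Aldh3a2 had 0.42, the aldehyde oxidase Aox1 0.50 and the epoxide hydrolase Ephx1 0.61, each with 4 arrays a group and, for Aldh3a2 and Aox1, no overlap.

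Marker lists of other liver cells gave 0 calls without a block. Col3a1, a collagen of the stellate list, averaged 2075 in knockout livers and 4299 in wild-type livers (-1.03, limma adjusted p = 0.158). It passed with the replicate pair as a block (adjusted p = 0.0235) and with the replicate number as a block (0.0490). Of the 6 stellate genes tested 2 were above 0, Pdgfrb at 0.29 and Dcn at 0.19, and the list median was -0.23. The list of gut markers, which are not liver cell markers, had 2 genes tested, on either side of 0. Fabp2, at -1.39 (limma adjusted p = 0.105), passed with the replicate number alone as a block (0.0454). Lgals4 had 0.30 (limma adjusted p = 0.453), and Vil1, Cdx1 and Cdx2 lay below 200 on every array. The summed stellate signal was 12994 to 17715 in knockout livers and 14103 to 21104 in wild-type livers. The summed granulocyte signal was 62229 to 86803 in knockout livers and 73032 to 90269 in wild-type livers, and the summed erythroid signal 36275 to 55135 in knockout livers and 42588 to 52105 in wild-type livers. These ranges overlapped.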
